A study of Mus musculus with 3 samples.

Results

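TRAV9 is a family of related variable (V) genes of the T cell receptor α chain (TRA). Its members here were the productive TRA contigs of called cells whose V gene carried a TRAV9, TRAV9D or TRAV9N name, and the choice did not use any level, clone size or CDR3. They were found in 475 of 5269 cells with a TRA, of 6634 cells in all, and on 487 contigs. They carried 6 of the 68 TRAV names in the data (TRAV9-1, TRAV9-2, TRAV9-4, TRAV9D-1, TRAV9D-3 and TRAV9N-4), and TRAV9-1 and TRAV9D-1 together were found in 289 cells.

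The cells were CD45+ immune cells sorted by FACS from perfused and digested sciatic nerves of neuropathic NOD.AireGW/+ mice, which carry a dominant mutation of Aire on the NOD background and develop a spontaneous autoimmune neuropathy. Droplet-based scTCR-Seq gave 3 libraries: replicate 1 and replicate 2 were 1 mouse each, and replicate 3 was a pool of 2 mice that cannot be told apart. All libraries were untreated and of this genotype, so the data hold no second condition, and the mutation and the background are shared by every cell. Age was not given in the labels, and cells were not divided into CD4+ and other T cells here.

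An α chain is made by joining a V gene to 1 of many joining (J) genes. Bases are trimmed and added at the joint, which is the third complementarity-determining region (CDR3), while CDR1 and CDR2 are encoded in the V gene itself. The TRA locus can rearrange more than once on an allele, using V genes farther upstream and TRAJ genes farther downstream each time, and a T cell can carry a rearranged TRA on both alleles. In the mouse, a large part of the TRAV genes lies in duplicated blocks, which is why a family has copies whose names carry D or N. The CDR3 together with the paired β chain (TRB) dominates contact with peptide, and CDR1 and CDR2 mostly face the MHC molecule.

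In the GRCm38 (mm10) annotation, 11 TRAV9 genes lay on the plus strand of chromosome 14 between positions 52792316 and 53676630, and 10 of them were annotated as functional V genes and 1, TRAV9N-1, as a pseudogene. In locus order, the copies named in the contigs were TRAV9D-1 (start 52792316, end 52792777), TRAV9D-3 (52920443 to 52921112), TRAV9N-4 (53294341 to 53295030), TRAV9-1 (53488045 to 53488567), TRAV9-2 (53590857 to 53591514) and TRAV9-4 (53676141 to 53676630). TRAJ genes and the constant region lie beyond TRAV9-4. The other 4 functional genes, TRAV9D-2, TRAV9D-4, TRAV9N-2 and TRAV9N-3, named no productive contig of a cell. TRAV9D-3 and TRAV9N-3 were identical over the last 291 bases of their V exons, so a contig of that V region cannot be told apart between these 2 genes.

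The deposited V regions of replicates 2 and 3 showed which parts of the receptor the copy names distinguish. They are shown from CDR1 to CDR2, that is positions 79 to 171 counted from 1 at the first base of the 270-base V region before the CDR3, with CDR1 and CDR2 in capitals, because these loops show which copies encode the same and which encode different contact regions.
TRAV9-1: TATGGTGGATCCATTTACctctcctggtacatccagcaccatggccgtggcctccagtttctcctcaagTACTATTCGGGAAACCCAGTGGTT
TRAV9-2: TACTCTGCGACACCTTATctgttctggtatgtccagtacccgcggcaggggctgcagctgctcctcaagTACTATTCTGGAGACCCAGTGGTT
TRAV9-4: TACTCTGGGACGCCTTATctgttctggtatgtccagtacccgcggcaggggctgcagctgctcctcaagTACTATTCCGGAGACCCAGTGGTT
TRAV9D-3: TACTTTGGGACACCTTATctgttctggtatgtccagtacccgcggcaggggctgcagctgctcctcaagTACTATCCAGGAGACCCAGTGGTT
TRAV9N-4: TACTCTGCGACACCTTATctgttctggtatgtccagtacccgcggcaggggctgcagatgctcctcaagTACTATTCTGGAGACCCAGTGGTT
In the deposited translations, TRAV9-1 and TRAV9D-1 had the same CDR1 and CDR2 as each other. TRAV9-2 and TRAV9N-4 shared both loops, TRAV9-4 had the CDR2 of these with a CDR1 of its own, and TRAV9D-3 had a CDR1 and a CDR2 of its own. The family therefore fell into a pair, TRAV9-1 and TRAV9D-1, whose V sequences differed from each other by 1 to 2 bases, and a group of 4 names, whose V sequences differed from each other by 6 to 12 bases and from those of the pair by 45 to 49.

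TRAV9-1 was the most used copy name in all 3 libraries, with TRAV9D-3 and TRAV9N-4 next and TRAV9-2 last. A rearrangement was the family, the nucleotide CDR3 and the TRAJ gene within a library, and where copies are compared the copy name was kept in it. In replicates 1 to 3, TRAV9-1 had 67 of 127 rearrangements (52.8%), 89 of 148 (60.1%) and 16 of 41 (39.0%), a mean of 50.6% ± 10.7 (SD, n = 3 libraries). Its share was thus lowest in the pooled replicate, where the exact 95% interval, from 24.2% to 55.5%, included the value of replicate 1 but not that of replicate 2.

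TRAV9D-3 had 22, 18 and 9 rearrangements (17.1% ± 4.90), TRAV9N-4 had 17, 18 and 5 (12.6% ± 0.697) and TRAV9-4 had 11, 10 and 5 (9.20% ± 2.76). TRAV9D-1, the near twin of TRAV9-1, had 7, 10 and 5 (8.15% ± 3.55), and TRAV9-2 had 3, 3 and 1 (2.28% ± 0.219). The shares of the names between TRAV9D-3 and TRAV9D-1 overlapped between libraries, so their order is not resolved beyond this spread, while TRAV9-1 lay above and TRAV9-2 below all of them in every library.

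**Figure D1:**
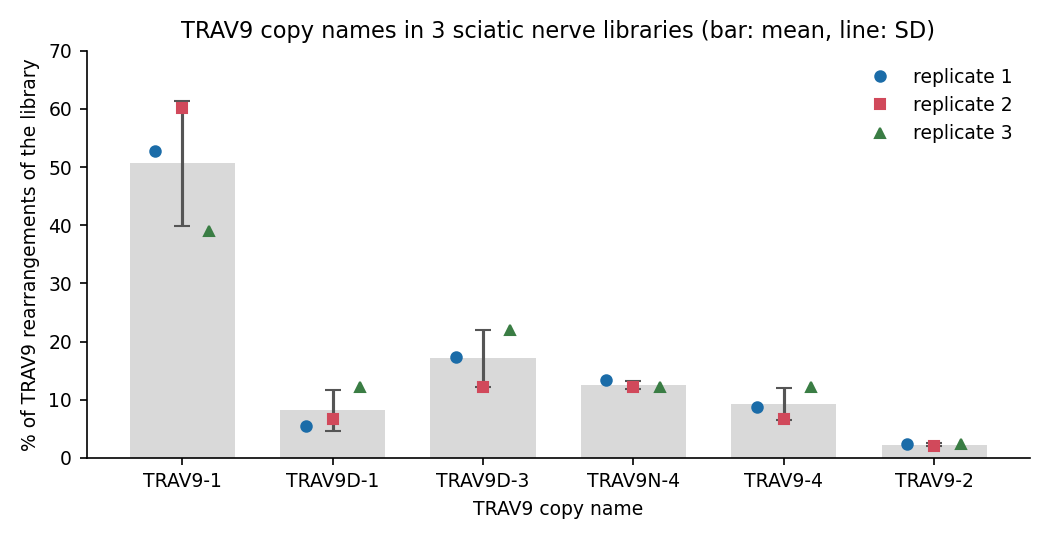
Share of each TRAV9 copy name among the TRAV9 rearrangements of a library, in percent, for replicates 1 to 3 (points), with the mean and SD over the 3 libraries (bar and line). TRAV9-1 lay between 39.0% and 60.1% and TRAV9-2 at about 2% in each library.

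The name TRAV9-1 covered 2 V sequences, which differed by 1 base. In the stretch from position 181 to 240 of the V region, shown because it holds every difference within the pair, the 2 differing positions are in capitals.
TRAV9-1, the first sequence: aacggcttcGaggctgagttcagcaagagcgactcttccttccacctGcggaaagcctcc
TRAV9-1, the second sequence: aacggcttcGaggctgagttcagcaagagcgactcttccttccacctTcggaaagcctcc
TRAV9D-1: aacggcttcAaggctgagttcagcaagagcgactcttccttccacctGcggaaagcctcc
The second TRAV9-1 sequence differed from the first by G228T, and the TRAV9D-1 sequence differed from the first by G190A. The first sequence was found on 83 contigs in replicate 2 and 10 in replicate 3, and the second on 38 and 6. Both sequences differed from GRCm38 TRAV9-1 by A125G and T240C, and the first also by T228G. The change T240C was present in the main sequence of every copy name, and 0 of 277 contigs with a deposited V region were identical to the reference, although 276 of them carried a name of their closest reference copy.

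The 2 TRAV9-1 sequences continued into the CDR3 with a different codon 3, counted from the cysteine codon. Of contigs with the first sequence, 81 of 83 in replicate 2 and 9 of 10 in replicate 3 had GTG (valine) there and none had GCG (alanine). Of contigs with the second, 37 of 38 and 6 of 6 had GCG and none had GTG. In GRCm38, none of the 11 TRAV9 genes has GCG at this codon. Replicate 1 has no deposited V region, but the codons divided its TRAV9-1 rearrangements in the same manner, with GTG in 38 and GCG in 21 of 67. Replicate 2 had 59 and 28 of 89, and replicate 3 had 9 and 6 of 16. The GCG share was 31.3% (exact interval 20.6% to 43.8%), 31.5% (22.0% to 42.2%) and 37.5% (15.2% to 64.6%).

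At the same codon, other names departed from the reference genes of the same name. Contigs named TRAV9-4 had CTG in 24 of 26 rearrangements, whereas GRCm38 TRAV9-4 has GTG. Contigs named TRAV9N-4 had GTG in 34 of 40, whereas GRCm38 TRAV9N-4 has CTG. Contigs named TRAV9-2 had GCG in 7 of 7, whereas GRCm38 TRAV9-2 has TTG, so GCG was not limited to the second TRAV9-1 sequence. TRAV9D-1 (GTG in 20 of 22) and TRAV9D-3 (GTG in 46 of 49) matched their reference genes. The copy names are therefore used below as the authors' labels, and a position in the C57BL/6 locus was not tested for the V genes of these mice.

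The contigs of TRAV9-1 also stood apart in length. Outside the CDR3 they were 431 to 503 bases long, and 258 of 265 had exactly 503. TRAV9D-1 contigs had 565 to 675 bases outside the CDR3 and the contigs of the other 4 names 470 to 708. Of the 20 TRAV9D-1 contigs with a deposited V region, 18 had the TRAV9D-1 sequence. Another had the first TRAV9-1 sequence with 597 bases outside the CDR3, and the last had the second with 590. These 2 V sequences are as close to GRCm38 TRAV9D-1 as to GRCm38 TRAV9-1, with 3 and 2 mismatches to either gene. The 43 TRAV9 rearrangements of more than 1 cell with deposited V regions each had 1 V sequence.

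**Figure D2:**
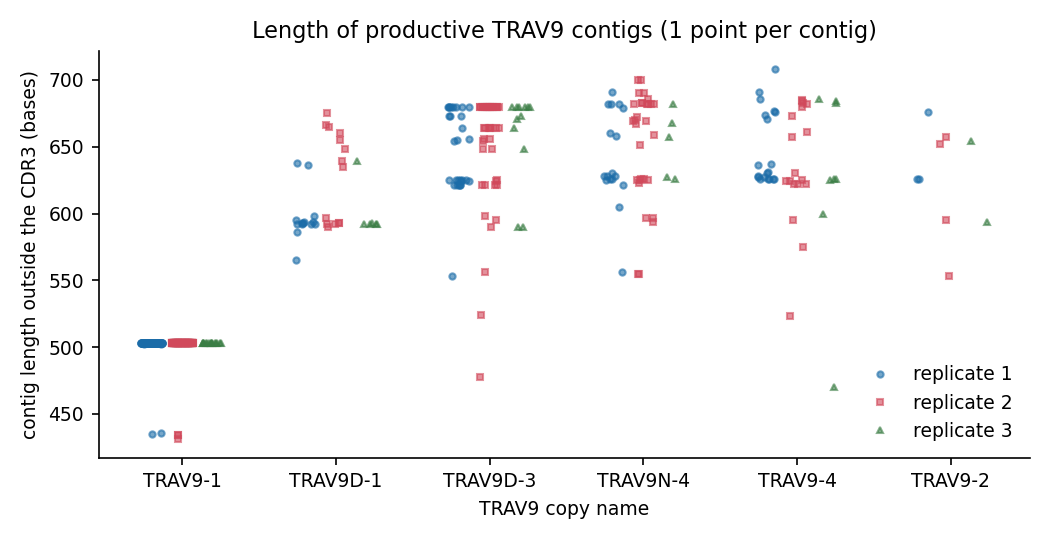
Length outside the CDR3, in bases, of each productive TRAV9 contig of a cell (1 point per contig) by copy name and replicate. TRAV9-1 contigs lay at or below 503 bases and all TRAV9D-1 contigs at 565 or above.

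The family held a similar share of α rearrangements in every library. Replicate 1 had 126 TRAV9 rearrangements of 1225 (10.3%, exact 95% interval 8.64% to 12.1%). Replicate 2 had 147 of 1689 (8.70%, 7.40% to 10.2%), and replicate 3 had 41 of 394 (10.4%, 7.57% to 13.9%). The mean was 9.80% ± 0.950 (SD, n = 3), and the 3 intervals overlapped. By cells its share was 9.95% (198 of 1989), 8.09% (228 of 2819) and 10.6% (49 of 461). A median TRAV9 contig had 5, 3 and 3 UMIs in replicates 1 to 3, against 5, 4 and 3 for the other TRA contigs. Intervals reflect counting error alone and take each rearrangement or cell as independent.

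The share of expanded TRAV9 rearrangements, those found in more than 1 cell, did not differ beyond the test's threshold from that of other families. The TRB was not part of a rearrangement, so cells with the same TRA and different TRBs were counted together as expanded. For example, a TRAV9-4 and TRAJ17 chain in 2 cells of replicate 2 had 2 different TRBs. In replicate 3 the cells of a rearrangement can also come from different mice. Expanded therefore does not always mean 1 clone. In replicates 1 to 3, 27 of 126 (21.4%), 35 of 147 (23.8%) and 8 of 41 (19.5%) were found in more than 1 cell, against 22.1%, 24.1% and 13.6% of the other rearrangements. In all, 70 were expanded where 68.9 were expected from the libraries (ratio 1.02, odds ratio 1.02 with an interval from 0.761 to 1.36, exact two-sided test stratified by library, adjusted p = 0.950). Of 17 TRAV families tested, 0% were called at an adjusted p under 0.05 and 1 had an unadjusted p under 0.05. No TRAV9 rearrangement had over 20 cells. Those of 6 to 20 cells were 6, 5 and 0 in replicates 1 to 3, and those of 2 to 5 cells were 21, 30 and 8. The largest had 14, 12 and 2 cells, while the largest of any other family had 266, 53 and 12.

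**Figure D3:**
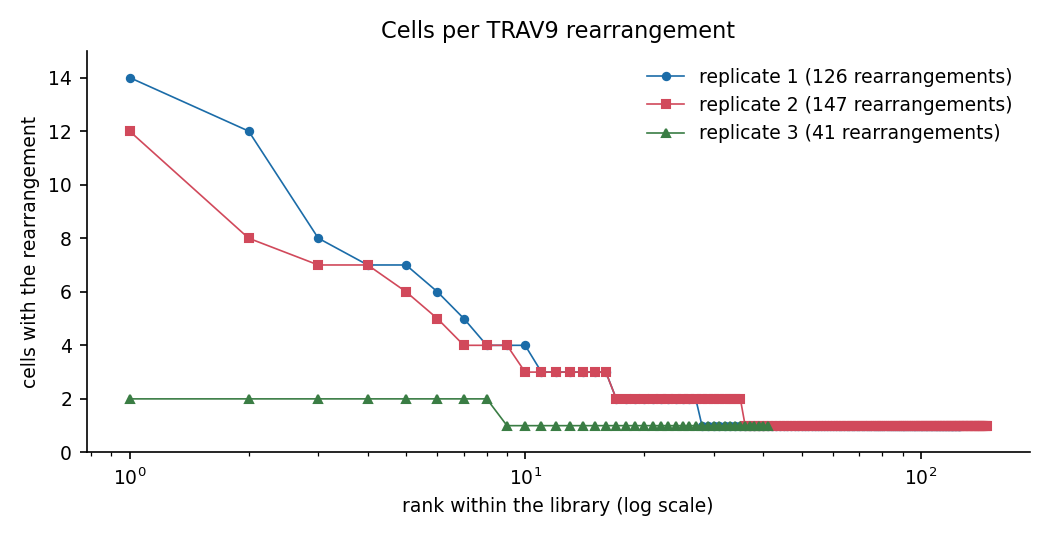
Cells per TRAV9 rearrangement (vertical axis) by rank within the library (horizontal axis, log scale) in replicates 1 to 3. The largest had 14, 12 and 2 cells, and most rearrangements in each library were seen in 1 cell.

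The 2 largest TRAV9 rearrangements of replicate 1 belonged to the same clone. Their CDR3s are shown with the TRB of the clone, because it is the largest set of TRAV9 cells in the data. Capitals in the TRAs mark bases that match neither a V nor a J reference gene, and in the TRB a run of glycine codons. Here and below, lower-case bases can differ from the named reference gene. The match crossed single mismatches and allowed the V ends of other TRAV9 genes.
TRA, TRAV9-1 and TRAJ48: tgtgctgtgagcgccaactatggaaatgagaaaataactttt
TRA, TRAV9-1 and TRAJ40: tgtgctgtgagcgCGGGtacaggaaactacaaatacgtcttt
TRB, TRBV5 and TRBJ2-1: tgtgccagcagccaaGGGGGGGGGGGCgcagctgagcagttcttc
The TRAJ48 chain was found in 14 cells and the TRAJ40 chain in 12, and 9 cells carried both. Of the 17 cells with either chain, 15 had a TRB, and all 15 had the one shown. It was found with the TRAJ48 chain alone in 4 cells and with the TRAJ40 chain alone in 2. No cell of replicate 1 had this TRB without at least 1 of the 2 α chains.

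The next largest TRAV9 rearrangement of replicate 1 and the 3 largest of replicate 2 are shown to identify them, with bases that match neither reference gene in capitals.
Replicate 1, TRAV9D-1 and TRAJ57: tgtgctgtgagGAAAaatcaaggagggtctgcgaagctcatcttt
Replicate 2, TRAV9D-3 and TRAJ7: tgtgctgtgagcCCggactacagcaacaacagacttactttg
Replicate 2, TRAV9N-4 and TRAJ13: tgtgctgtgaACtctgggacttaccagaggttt
Replicate 2, TRAV9D-3 and TRAJ57: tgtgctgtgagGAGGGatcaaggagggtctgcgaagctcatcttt
The TRAJ57 chain of replicate 1 was found in 8 cells, and 7 of them had the same TRBV13-1 chain. In replicate 2 the TRAJ7 chain was found in 12 cells, all 12 with the same TRBV1 chain, and 9 of them also had the same second TRA, with TRAV13-1 and TRAJ11. The TRAJ13 chain had 8 cells, all with the same TRBV19 chain and none with a second TRA, and the TRAJ57 chain had 7 cells, 6 of them with the same TRBV13-3 chain. A TRAV9-1 and TRAJ27 chain of replicate 2 also had 7 cells, and of these the one with more UMIs (21 against 18) is shown.

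In replicate 3 each of the 8 expanded TRAV9 rearrangements had 2 cells. The 3 of them with the most UMIs paired TRAV9-4 with TRAJ28 (16 UMIs), TRAV9D-3 with TRAJ24 (14 UMIs) and TRAV9-4 with TRAJ37 (9 UMIs).

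Of the TRAV9 cells, 47 of 198, 45 of 228 and 3 of 49 had a second productive TRA in replicates 1 to 3. Counted by contig, 28.1% of TRAV9 contigs in replicate 1 lay in a cell with 2 TRAs (exact interval 22.1% to 34.7%) against 16.7% of other TRA contigs (15.1% to 18.4%). The values were 19.7% and 16.8% in replicate 2 and 6.12% and 8.56% in replicate 3, with overlapping intervals. In replicate 1, 9 of the 47 cells were those of the TRAJ48 and TRAJ40 chains, and 3 further cells had 2 TRAV9 chains. No cell with 2 TRAV9 chains was found in replicates 2 and 3. Each cell with 2 TRAV9 chains enters the contig count with both contigs, and cells of a clone share their chains. The contigs are therefore not independent, which the intervals do not take into account. The 9 cells of the replicate 1 clone weigh on its value, and the difference was not tested. None of the second α chains was an invariant NKT or MAIT chain.

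TRAJ12 was the only TRAJ gene called for the family. TRAV9 had 22 rearrangements with TRAJ12 where 7.89 were expected, 2.79 times as many (odds ratio 3.61, interval 2.08 to 6.06, exact two-sided test stratified by library, p = 5.04e-06, adjusted p = 0.000212). Of 42 TRAJ genes tested, 2.38% were called. In replicate 1, 6 of 126 TRAV9 rearrangements had TRAJ12 (4.76% against 1.64% of the others), and replicate 2 had 15 of 147 (10.2% against 2.14%). Replicate 3 had 1 of 41 (2.44% against 3.12%), which is the other direction. Without replicate 2 no TRAJ gene was called.

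Most of the TRAJ12 chains carried the TRAV9-1 name, 19 of 22 (6, 12 and 1 in replicates 1 to 3). The others were 1 each of TRAV9-4, TRAV9D-1 and TRAV9N-4. TRAV9-1 was also the name of most TRAV9 rearrangements with any TRAJ gene, 172 of 316 (54.4%), and the difference was not tested. The CDR3 protein with the most TRAJ12 cells arose from 4 nucleotide sequences, which are shown first, and 2 further CDR3s were found in both replicates 1 and 2. Bases outside the V and J matches are in capitals, as above. In chains that start with tgtgctgcgagca, the C of GCG and the last A are lower case, although GRCm38 TRAV9-1 has neither.
Replicates 1 and 2, TRAV9-1: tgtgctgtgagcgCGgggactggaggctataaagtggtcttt
Replicates 1 and 2, TRAV9-1: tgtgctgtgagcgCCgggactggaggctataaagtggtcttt
Replicate 2, TRAV9-1: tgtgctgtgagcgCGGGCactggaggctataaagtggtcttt
Replicate 2, TRAV9D-1: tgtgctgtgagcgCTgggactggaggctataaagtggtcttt
Replicates 1 and 2, TRAV9-1 with methionine: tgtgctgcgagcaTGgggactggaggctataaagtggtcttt
Replicate 1, TRAV9-1 with isoleucine: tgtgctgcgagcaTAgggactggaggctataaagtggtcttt
Replicate 2, TRAV9-1 with isoleucine: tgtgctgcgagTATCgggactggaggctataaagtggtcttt
The 4 synonymous sequences were found in 2 cells of replicate 1 and 7 of replicate 2. The deposited V region of the chain named TRAV9D-1 was the first TRAV9-1 sequence. The CDR3 with methionine was in 3 cells of replicate 1 and 1 of replicate 2, and the CDR3 with isoleucine in 2 and 1. Both of the latter had the GCG codon, and all 3 proteins had the same stretch from TRAJ12.

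The other TRAJ genes showed no call. Of the 5 most used with TRAV9, TRAJ31 had 8, 6 and 5 rearrangements in replicates 1 to 3, TRAJ37 had 5, 9 and 2, TRAJ15 had 6, 7 and 2, and TRAJ27 had 4, 10 and 1. TRAJ37 and TRAJ15 were above the other families in every library (for TRAJ37, 3.97%, 6.12% and 4.88% against 2.82%, 3.24% and 2.55%), with adjusted p = 0.358 for each in the exact test. TRAJ28, rare in the libraries, had 6 TRAV9 rearrangements where 1.71 were expected (exact p = 0.00486, adjusted p = 0.102). The family used 41 of the 42 TRAJ genes.

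**Figure D4:**
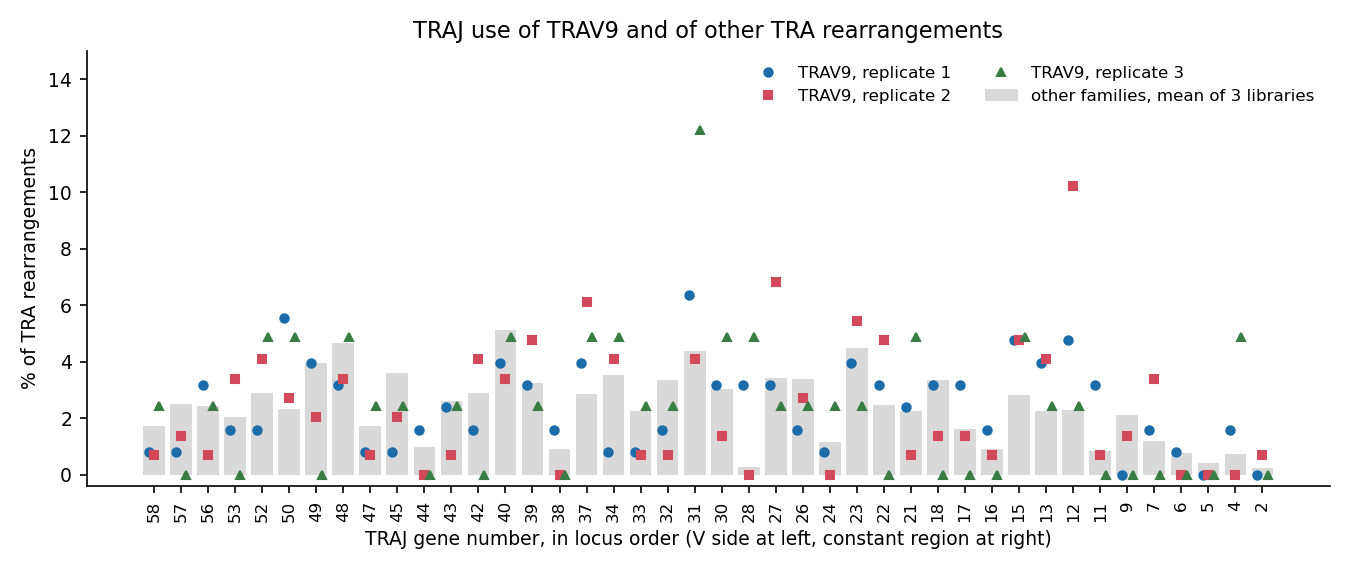
Share of TRAV9 rearrangements with each TRAJ gene, in percent, in replicates 1 to 3 (points), and the mean share among other TRA rearrangements over the 3 libraries (bars), in locus order. TRAJ12 stood at 4.76%, 10.2% and 2.44% of TRAV9 rearrangements, against a mean of 2.30% of the others.

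TRAV9 rearrangements used TRAJ genes nearer the constant region more often than the other families in 2 of 3 libraries. TRAJ genes numbered 30 or lower made up 50%, 50.3% and 39.0% of TRAV9 rearrangements in replicates 1 to 3, and 38.6%, 40.9% and 40.5% of the others. In all, 153 had such a gene where 128 were expected (ratio 1.20, odds ratio 1.43, interval 1.13 to 1.82, exact two-sided test stratified by library, adjusted p = 0.00646). The same test called 64.7% of the 17 TRAV families, 6 above and 5 below expectation, so a call was common. Without replicate 1 or replicate 2 the TRAV9 call was lost (adjusted p = 0.0910 and 0.113 in the exact test).

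By copy name, TRAV9N-4 had the highest share of such TRAJ genes. In replicates 1 to 3 these were 13 of 17 (76.5%), 16 of 18 (88.9%) and 3 of 5 (60.0%), beside 39.3%, 41.3% and 40.1% of all other rearrangements. In all, 32 of 40 used them where 16.3 were expected (odds ratio 5.93, interval 2.66 to 14.9, adjusted p = 1.26e-05 in the same exact test over 55 TRAV names, of which 36.4% were called). TRAV9-1 had 72 of 172 (41.9%), TRAV9D-1 9 of 22 (40.9%), TRAV9D-3 23 of 49 (46.9%), TRAV9-4 16 of 26 (61.5%) and TRAV9-2 3 of 7 (42.9%). This test by name was chosen after the shares had been seen. Without TRAV9N-4 the family's ratio was 1.10 (adjusted p = 0.191 in the exact test).

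**Figure D5:**
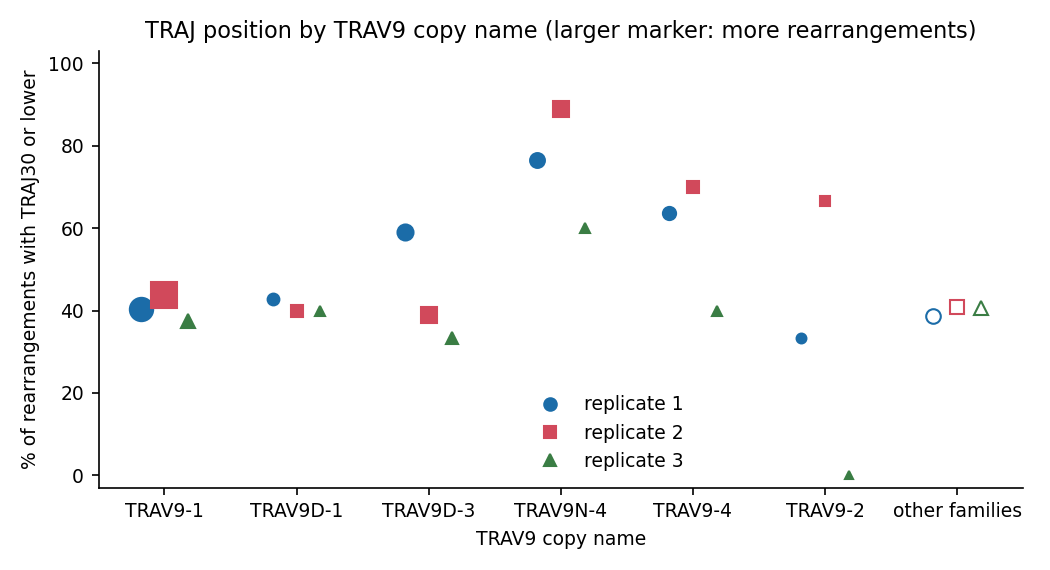
Share of rearrangements with a TRAJ gene numbered 30 or lower, in percent, by TRAV9 copy name and replicate (filled points, larger with more rearrangements) and for all other families (open points). TRAV9N-4 stood at 76.5%, 88.9% and 60.0%, and the other families at 38.6% to 40.9%.

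TRAV9 CDR3s were 13.8 ± 1.17, 13.99 ± 1.10 and 13.5 ± 1.03 residues long in replicates 1 to 3 (mean and SD over rearrangements), against 13.5, 13.6 and 13.6 for the other families, and this difference was not tested. The residue after the opening cysteine and alanine was valine in 65.1%, 70.1% and 63.4% of TRAV9 rearrangements, alanine in 21.4%, 22.4% and 22.0%, and leucine in 8.73%, 6.12% and 12.2%. A median of 2, 3 and 2 CDR3 bases lay outside the V and J matches. Crossed mismatches were not counted, and the V match was not limited to the named gene. In each of the 16 TRAJ37 rearrangements the match to the reference J gene ended after 14 bases, and all bases between there and the V match were counted as unmatched.

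No TRBV gene was called as a partner of TRAV9. Cells with exactly 1 TRA and 1 TRB gave 256 TRAV9 pairs of 2581 (97, 124 and 35 in replicates 1 to 3), and 0% of 20 TRBV genes tested were called, with 3 at an unadjusted p under 0.05 in the exact stratified test. The most frequent partners were TRBV5 with 30 pairs (17, 10 and 3), TRBV13-1 with 27 (8, 14 and 5), TRBV12-2+TRBV13-2 with 24 (10, 12 and 2), TRBV2 with 22 (10, 11 and 1), and TRBV16 and TRBV19 with 21 each. TRBV12-2+TRBV13-2 is a joint name in the files. TRBV13-2 alone named 11 further pairs (8, 2 and 1) and TRBV12-2 alone 1, so the order is one of names. TRBV2 was nearest to a call, with 22 pairs where 13.03 were expected (exact p = 0.0105, adjusted p = 0.211).

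A few TRBs recurred between libraries beside TRAV9 chains, 1 of them beside the same α CDR3 protein. The sequences and counts in this and the next paragraph were picked after the pairs had been seen and are given with no test. Of 338 TRBs found beside a TRAV9 chain, 3 were found beside a TRAV9 chain in more than 1 library (0.888%), and in each of the 3 the α chains also shared the TRAJ gene. Of 2878 TRBs beside the other families, 26 recurred beside the same family (0.903%), a similar share, and 16 beside the same family and TRAJ gene (0.556%), spread over 6 families. Of 3119 TRBs beside any TRA, 37 were in more than 1 library (1.19%). The CDR3s of the 3 receptors are shown with the bases that differ between libraries in capitals, and with the number of cells that had both chains.
TRA, TRAV9-4 and TRAJ28, replicate 1, 7 cells: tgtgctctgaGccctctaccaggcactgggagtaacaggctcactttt
TRA, TRAV9-4 and TRAJ28, replicate 3, 1 cell: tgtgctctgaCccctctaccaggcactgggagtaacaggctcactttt
TRB, TRBV5 and TRBJ2-3, replicate 1: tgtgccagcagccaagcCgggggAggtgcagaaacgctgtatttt
TRB, TRBV5 and TRBJ2-3, replicate 3: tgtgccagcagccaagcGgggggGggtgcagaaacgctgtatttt
TRA, TRAV9-1 and TRAJ42, replicate 1, 3 cells: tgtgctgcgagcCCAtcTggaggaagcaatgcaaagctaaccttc
TRA, TRAV9-1 and TRAJ42, replicate 2, 2 cells: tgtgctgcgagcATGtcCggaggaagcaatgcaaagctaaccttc
TRB, TRBV2 and TRBJ1-6, both replicates: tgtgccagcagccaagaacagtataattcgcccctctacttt
TRA, TRAV9-1 and TRAJ34, replicate 2, 2 cells: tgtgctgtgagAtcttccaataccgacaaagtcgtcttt
TRA, TRAV9D-1 and TRAJ34, replicate 3, 1 cell: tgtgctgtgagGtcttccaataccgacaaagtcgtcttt
TRB, TRBV14 and TRBJ1-1, both replicates: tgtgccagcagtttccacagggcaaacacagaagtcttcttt
The TRAJ28 chains differed by 1 base and 1 residue, and their TRBs encoded the same CDR3 protein with 2 different bases. The TRAJ42 chains, both with the GCG codon, differed by 4 bases and 1 residue, and their TRBs had the same nucleotide CDR3. The TRAJ34 chains differed by 1 base and no residue, and their TRBs also had the same nucleotide CDR3. Of 10 cell barcodes found in more than 1 library, 2 had a TRAV9 chain, and none carried the same TRAV9 rearrangement in both libraries. This count does not bear on the 3 receptors, because their α chains differed in bases between libraries and so could not be the same rearrangement.

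Several TRAV9 receptors had a run of glycines in a TRBV5 CDR3. Of the TRAV9 pairs with TRBV5, 4 of 17, 1 of 10 and 2 of 3 in replicates 1 to 3 had 3 or more glycines in a row in the TRB, against 3 of 101, 3 of 118 and 1 of 23 TRBV5 pairs of other families. In all this was 7 of 30 (23.3%) and 7 of 242 (2.89%). The pairs of TRAV9 count the TRB of the replicate 1 clone once with each of its α chains. With each TRB counted once per library, 6 of 29 (20.7%) and 7 of 232 (3.02%) had such a run. TRBs with 4 glycines directly after the V-encoded cysteine, alanine, serines and glutamine were 4 sequences, all TRBV5, in 21 cells. Of these cells 18 had a TRA, and all 18 had a TRAV9-1 chain. Of the 18, however, 15 were cells of the replicate 1 clone, 2 shared the TRB of replicate 2 and 1 was of replicate 3. Cells of a clone are not separate receptors. The remaining TRB was in 1 cell of replicate 3, which had no TRA. Beyond the clone of replicate 1 shown above, the pairs were these, with glycine codons in capitals in the TRBs and bases that match neither reference gene in capitals in the TRAs.
TRB, TRBV5 and TRBJ1-1, replicate 2: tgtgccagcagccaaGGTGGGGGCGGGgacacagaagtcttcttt
TRA, TRAV9-1 and TRAJ40, replicate 2: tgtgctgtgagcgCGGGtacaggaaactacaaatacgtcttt
TRB, TRBV5 and TRBJ1-6, replicate 3: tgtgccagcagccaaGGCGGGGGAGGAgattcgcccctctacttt
TRA, TRAV9-1 and TRAJ40, replicate 3: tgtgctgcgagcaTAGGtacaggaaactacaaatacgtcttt
In replicate 2 the TRB was in 4 cells, of which 2 had a TRA, and that TRA had the same nucleotide CDR3 as the TRAJ40 chain of replicate 1. In replicate 3 the TRB was in 1 cell, and its TRA had the GCG codon and the same bases as the TRAJ40 chain of replicates 1 and 2 from the glycine codon GGT onward. A TRAV9-1 and TRAJ40 chain thus stood beside a glycine-run TRBV5 chain in every library, with a different TRBJ gene in each.

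TRAV9 α chains alone were found in more than 1 library about as often as those of other families. Of 289 distinct TRAV9 chains by amino acid CDR3 and TRAJ gene, 12 were in more than 1 library (4.15%), against 99 of 2842 in the other families (3.48%), and the difference was not tested. Of the 12, 9 had a nucleotide sequence common to libraries, 2 were in all 3 libraries, 3 used TRAJ12, 1 had a TRB in common and 5 carried several copy names. The TRAJ40 chain printed above was in 12 cells of replicate 1 and 4 of replicate 2, and the TRAJ48 chain in 14 cells of replicate 1, named TRAV9-1, and 2 of replicate 3, named TRAV9D-3.

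The chains in all 3 libraries were a TRAJ34 chain, in 1, 2 and 1 cells of replicates 1 to 3, and a TRAJ31 chain, in 2, 1 and 1 cells. Of those in 2 libraries, a TRAJ13 chain with valine was in 3 cells of replicate 1 and 1 of replicate 2, a TRAJ13 chain with leucine (TRAV9-4) in 2 cells of replicate 1 and 1 of replicate 3, and a TRAJ37 chain in 1 cell of replicate 1 and 2 of replicate 2.

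Few junctions were given different copy names. A junction on a single contig can carry only 1 name, so the shares below depend on how many junctions were seen more than once. In replicates 1 to 3, 27, 35 and 8 TRAV9 rearrangements had more than 1 cell. Of 303 junctions, each a nucleotide CDR3 with its TRAJ gene, 4 carried several TRAV9 names (1.32%), of which 2 did so within a library, against 26 of 2633 junctions in the 11 other families with several names (0.987%). Those within a library are shown with bases that match neither reference gene in capitals.
TRAJ9, replicate 2: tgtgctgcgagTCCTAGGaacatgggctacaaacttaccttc
TRAJ13, replicate 1: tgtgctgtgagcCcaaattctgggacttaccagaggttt
The TRAJ9 junction was named TRAV9-1 in 1 cell and TRAV9D-1 in another. The 2 contigs had the same V sequence, the second TRAV9-1 sequence, and 503 and 590 bases outside the CDR3. This was the only junction for which the files showed 1 V sequence under 2 names.

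The TRAJ13 junction was named TRAV9-1 and TRAV9N-4 in replicate 1 and, in 1 cell, TRAV9D-3 in replicate 2, with a different TRB under each name. Of the junctions whose names differed only between libraries, that of the TRAJ48 chain was named TRAV9-1 in replicate 1 and TRAV9D-3 in replicate 3, in 2 cells with another TRB, where the deposited V region was that of TRAV9D-3. A TRAJ34 junction was named TRAV9-1 in replicate 1 and TRAV9D-1 in replicate 3, with different TRBs.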

How the data were processed

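scTCR-Seq of CD45+ sciatic nerve cells was grouped by the labels as 1 condition with 3 libraries from 4 mice. The authors processed reads with Cell Ranger on mm10, per the labels; its version is not given in the sources used here. For each contig they deposited counts of UMIs and reads, the genes, the CDR3 and, for replicates 2 and 3 (31 columns against 18), the V region sequence. Clonotype and consensus files were not used. The libraries had 2374, 3555 and 705 cells with 34630, 41338 and 5142 UMIs, so replicate 3 is the least precise. Of 10 cell barcodes found in more than 1 library, 2 had a TRAV9 chain.

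Families, TRAJ and TRBV genes with at least 10 rearrangements were tested across the whole table with an exact two-sided test on counts stratified by library (conditional odds ratio, Benjamini-Hochberg adjustment), tested on simulated data first. It compares rearrangements in these libraries, not mice. Intervals are exact Clopper-Pearson 95% intervals. Junctions and V regions were matched to GRCm38 with GENCODE M21 coordinates, crossing a mismatch followed by 3 matching bases. The V match of a junction could use the end of a TRAV9 gene other than the named one. Named items were all copy names, TRAJ and TRBV genes called in the same direction in all libraries or otherwise the 5 most used, the 3 largest rearrangements per library, and up to 10 shared chains and junctions; TRAJ28, the recurrent pairs, the glycine runs and the test by name were added after their values were seen. Members and lists were chosen with earlier results of these data known. Alternatives were a minimum of 3 UMIs, amino acid CDR3s, copy names kept, cells with 1 TRA and 1 TRB, cells in place of rearrangements, other limits for expansion and TRAJ position, and leave-one-out over libraries. Analyses ran in Python 3.11.15 with scipy 1.17.1, numpy 2.4.6, matplotlib 3.10.9 and pandas 2.3.3.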

Additional observations from a re-analysis of the deposited data

Results flagged for a closer look

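Contigs outside the comparisons also carried TRAV9 names, above the 3 counts that a count of 0 allows. Nonproductive TRAV9 contigs of called cells numbered 37, 54 and 12 in replicates 1 to 3. Productive TRAV9 contigs on barcodes that were not called cells numbered 446, 81 and 14, with a median of 1, 3 and 2 UMIs. TRAV9D-2, which named no productive contig of a cell, named 1 nonproductive contig in each library.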

How the results depend on the processing

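Of 53 values under alternative settings, 37 kept their direction and their side of the threshold, or their size. The TRAV9 share of rearrangements stayed between 9.49% and 10.4%. The ratio for expansion, not called under any setting, was 1.18 with chains of at least 3 UMIs, 1.09 by amino acid CDR3, 0.896 in cells with 1 TRA and 1 TRB, 0.980 for over 2 cells and 0.962 for over 5 cells, and 0.982 to 1.04 with a library left out. The ratio for TRAJ genes numbered 30 or lower was 1.16 to 1.23 with a library left out, losing its call without replicate 1 or replicate 2, and 1.10 without TRAV9N-4, an alternative chosen after seeing the data. The number of TRAJ genes called was 0 to 1 with a library left out, and TRAJ12 was called under every other setting. Junctions under several copy names were 9 by amino acid CDR3, 2 in cells with 1 TRA and 1 TRB, 1 where the V sequence or the cell had to be the same, and 1 to 3 with a library left out. Chains in several libraries were 7 in cells with 1 TRA and 1 TRB and 2 to 10 with a library left out, where fewer libraries were compared. For the other changes, the cause was not tested. No paired analysis was possible because all libraries belong to 1 group. Replicate 3, with 41 TRAV9 rearrangements, limits what can be said of its shares.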
